A study of Homo sapiens with 12 samples.

Results

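SCG5, CALB2 and CPA4 are 3 protein-coding genes that were each measured by 1 probe on bead arrays of MDA-MB-231 cells, an established line of triple-negative breast cancer. They are 3 of the 12274 genes that could be analysed. They were chosen on these same arrays because their signal rose over 10-fold with an siRNA against EZH2 while their responses to siRNAs against RELA and RELB differed, so those differences are given as a description and carry no test.

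Total RNA was hybridised to 12 arrays, 1 per sample, to ask how EZH2 bears on the genes controlled by NF-kappaB in breast cancer cells. Cells received a negative control siRNA (siNC), or siEZH2, siRelA or siRelB, and were then either left without TNFalpha or exposed to it at 10 ng/ml for 4 h. There were 3 arrays each of siNC and siEZH2 without TNFalpha, and 1 array each of siNC with TNFalpha, siEZH2 with TNFalpha, siRelA without and with TNFalpha, and siRelB without and with TNFalpha. All groups share the 1 cell line and a transfection, and whether replicates came from separate cultures is not stated, so a p-value here covers only differences among arrays, which may be technical. Knockdown by siRNA lowers a transcript and leaves the gene intact, and in a bulk sample fewer cells expressing a gene and less RNA per cell cannot be told apart.

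EZH2 is the catalytic subunit of Polycomb repressive complex PRC2, which methylates histone H3 and keeps genes silent. RELA and RELB are DNA-binding subunits of NF-kappaB, RELA in the canonical branch that TNFalpha activates and RELB mainly in the non-canonical branch. SCG5 encodes secretogranin V, a small chaperone of neuroendocrine secretory granules that binds the prohormone convertase PCSK2. CALB2 encodes calretinin, a calcium-binding protein with EF-hand motifs that is known from neurons and mesothelial cells. CPA4 encodes a secreted zinc carboxypeptidase of the M14 family, which removes hydrophobic residues from the end of peptides.

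The promoter windows of SCG5 and CPA4 are shown because these genes rose together with siEZH2 and moved apart with siRelA and siRelB. They come from RefSeq on build GRCh38.p14 and run from 250 bases before to 50 bases after the annotated start, 300 bases in all, at chr15:32641460-32641759 for SCG5 and chr7:130292911-130293210 for CPA4, both on the plus strand. Capitals mark matches, on either strand, to a GC box (GGGCGG), an AP-1 site (TGANTCA) or a TATA box (TATAAA). CALB2, on chromosome 16, had no entry in the table.
SCG5 promoter: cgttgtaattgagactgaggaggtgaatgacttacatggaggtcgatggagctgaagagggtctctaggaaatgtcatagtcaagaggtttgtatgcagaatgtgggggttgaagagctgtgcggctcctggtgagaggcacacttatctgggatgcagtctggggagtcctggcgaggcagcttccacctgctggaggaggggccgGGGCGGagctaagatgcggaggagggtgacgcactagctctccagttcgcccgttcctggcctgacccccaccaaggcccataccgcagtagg
CPA4 promoter: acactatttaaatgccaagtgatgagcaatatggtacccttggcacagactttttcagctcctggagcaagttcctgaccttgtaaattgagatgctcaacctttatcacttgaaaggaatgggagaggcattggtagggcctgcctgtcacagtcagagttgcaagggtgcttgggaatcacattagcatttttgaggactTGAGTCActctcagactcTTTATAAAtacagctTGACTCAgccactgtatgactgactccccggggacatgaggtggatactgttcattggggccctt
The SCG5 window held 11 CpG dinucleotides and 58.0% G and C, and 53.1% of all 35116 windows held more CpG. Its 1 capitalised match was a GC box that began at base -43 from the start, a motif found in 45% of windows. The CPA4 window held 1 CpG and 46.3% G and C, and 89.0% of all windows held more, the median being 14. It held the AP-1 matches TGAGTCA at -48 and TGACTCA at -15, and between them TATA box matches on the plus strand at -28 and on the minus strand at -30, which overlap. An AP-1 match was present in 7.71% of windows, at least 2 in 0.515%, a TATA box match in 11.5% and both motifs in 1.31%. The kappaB motif, the site that NF-kappaB subunits bind, had no match in either window and was present in 5.91% of all windows. These are matches of letters and not measured binding.

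The label was checked against marker genes. VIM (vimentin), CD44, SNAI2, AXL, MSN and CAV1 were detected on all 12 arrays, SPARC and TWIST1 on none, and of the 10 epithelial and luminal genes ESR1, PGR and FOXA1 on none while EPCAM, KRT8, KRT18, KRT19 and ERBB3 were detected on all 12. With siEZH2, CAV1 of the 8 measured mesenchymal markers fell 1.66-fold (limma, adjusted p = 0.0384, lost in 7 of 17 alternative settings) and EPCAM of the 7 measured epithelial markers fell 2.67-fold (adjusted p = 0.0119, lost in 2). With the replicate number as a block, a setting that called 5347 of all 12274 genes, 3 mesenchymal markers rose and 1 fell. In that setting 1 epithelial marker rose and 3 fell. The share of probes detected on an array was 55.6% to 58.2%. The replicate 2 arrays of siNC and siEZH2 had the highest background, 101.5 and 99.7 intensity units against at most 80.1 elsewhere, and the siNC array with TNFalpha was read from a mean of 23.6 beads per probe against at least 40.8 elsewhere. Replicates 1 and 2 of siNC and siEZH2 without TNFalpha form the first of 2 sets in which the authors centred their processed values, and the other 8 arrays form the second set.

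The siRNA targets were lower in the arrays labelled for them. EZH2 fell by 2.78 ± 0.37 (SE) on the log2 scale with siEZH2, a 6.85-fold decrease (limma, adjusted p = 0.00538, n = 3 against 3). RELA was undetected on both siRelA arrays and was at least 3.54-fold lower there than with siNC (limma, adjusted p = 0.00164). RELB fell 5.56-fold with siRelB (limma, adjusted p = 0.000597), where it was detected on 1 of 2 arrays, the one with TNFalpha, so this fold is a fitted value. RELB also fell 4.51-fold with siRelA (limma, adjusted p = 0.0013), so both subunits were low on the siRelA arrays. EZH2 itself did not pass the test with siRelA (log2 change 0.36 ± 0.33, adjusted p = 0.787) or siRelB (0.47 ± 0.33, adjusted p = 0.734). These bounds and changes are on log2 normalized intensity, and the bound uses the dimmest detected probe of each array in place of an undetected one.

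With siEZH2, all 3 genes rose by a similar factor. Against siNC without TNFalpha (n = 3 against 3), SCG5 rose 13.2-fold, a log2 change of 3.72 ± 0.23 (SE), CALB2 rose 13.1-fold (3.71 ± 0.18) and CPA4 rose 11.6-fold (3.54 ± 0.26). The rule used this contrast, in which 14.8% of all genes passed an adjusted p of 0.05 in limma, 7.89% upward and 6.92% downward, and 0.0652% rose over 10-fold.

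SCG5 signal without TNFalpha was 381.6, 756 and 348.9 intensity units on the siNC arrays of replicates 1, 2 and 3 and 4815.8, 5351.4 and 4928.3 on the siEZH2 arrays. With TNFalpha it was 313.4 for siNC and 4944.3 for siEZH2. The siEZH2 arrays thus lay close together, while the siNC array of replicate 2 stood above the other siNC arrays. After normalization the log2 means were 8.60 ± 0.41 (SD, n = 3) for siNC and 12.32 ± 0.044 (SD, n = 3) for siEZH2, with no overlap. Paired by replicate number, the rise was 14.03-fold, 9.53-fold and 17.2-fold, and between the arrays with TNFalpha it was 19.2-fold. The smallest of these ratios was that of replicate 2, whose arrays had the highest background, and without both replicate 2 arrays the log2 change was 3.96.

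CALB2 signal without TNFalpha was 525.7, 878 and 537.3 with siNC and 6674, 8078.3 and 6276.8 with siEZH2. With TNFalpha it was 516.9 for siNC and 6107.6 for siEZH2. CALB2 was the steadiest of the 3 genes: the pooled SD over replicates was 0.157 on the log2 scale, against 0.289 for SCG5 and 0.354 for CPA4. The log2 means were 9.09 ± 0.18 (SD, n = 3) for siNC and 12.79 ± 0.13 (SD, n = 3) for siEZH2. Paired by replicate number the rise was 13.4-fold, 12.5-fold and 13.3-fold, and with TNFalpha it was 13.1-fold. Both replicate 2 arrays were the highest of their group, so their ratio stayed near the others.

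CPA4 signal without TNFalpha was 235.7, 278.6 and 221.4 with siNC and 2352.3, 1623.4 and 2373 with siEZH2. With TNFalpha it was 226.8 for siNC and 2390.8 for siEZH2. The siEZH2 array of replicate 2 was the lowest of its group and the 3 other siEZH2 arrays lay within a narrow range. The log2 means were 7.46 ± 0.18 (SD, n = 3) for siNC and 10.998 ± 0.47 (SD, n = 3) for siEZH2. Paired by replicate number the rise was 12.3-fold, 9.13-fold and 14.02-fold, and with TNFalpha it was 13.4-fold. Without both replicate 2 arrays the log2 change was 3.72.

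**Figure D1:**
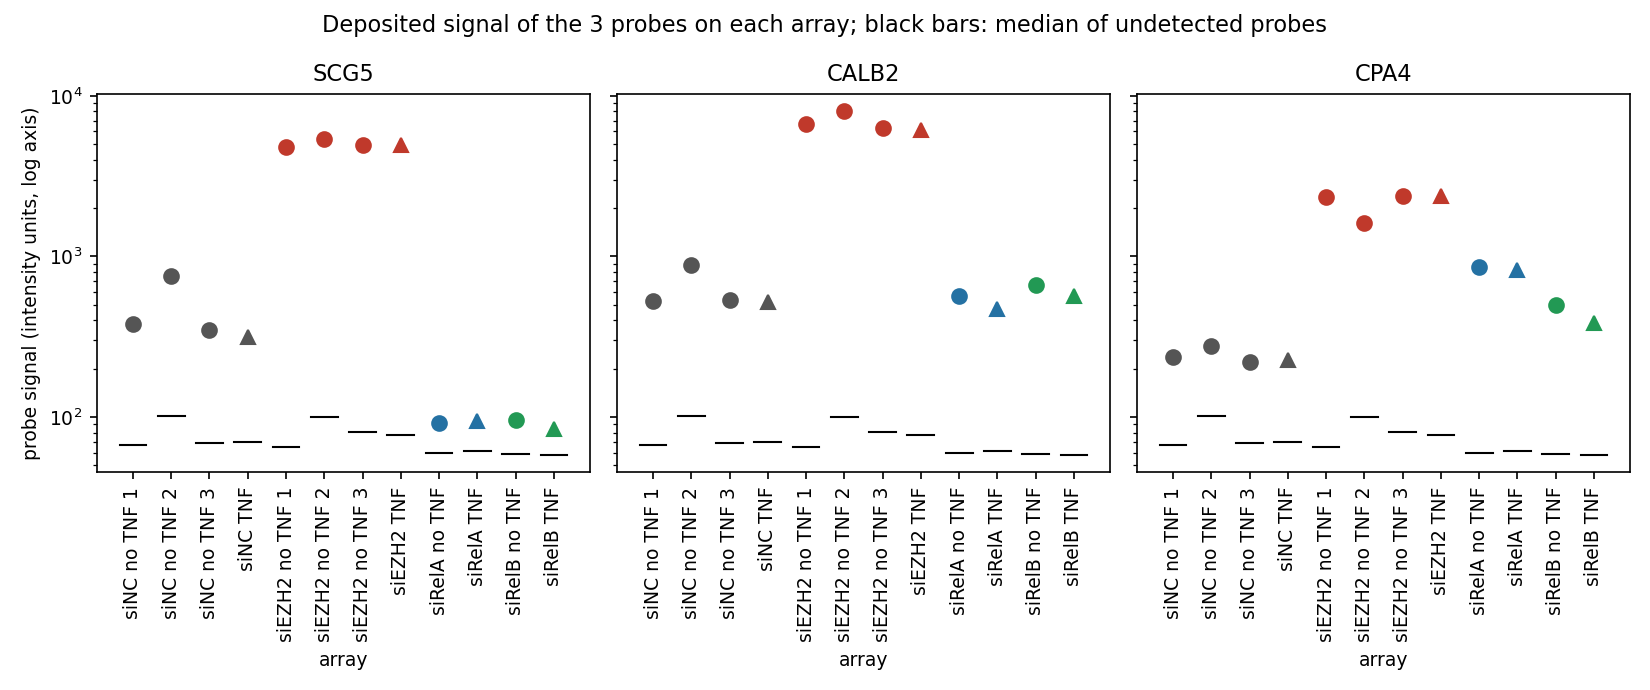
Deposited signal of the SCG5, CALB2 and CPA4 probes in intensity units on a log axis, 1 point per array, circles without and triangles with TNFalpha; the black bar under each point is the median signal of the undetected probes on that array. The 4 siEZH2 arrays are highest for each gene, while the siRelA and siRelB arrays lie below siNC for SCG5, beside siNC for CALB2 and above siNC for CPA4.

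The rise was present in both processing sets. In the first set (2 arrays against 2) the log2 change was 3.53 for SCG5, 3.70 for CALB2 and 3.41 for CPA4. In the second set (2 against 2, TNFalpha fitted) it was 4.18, 3.72 and 3.78.

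With siRelA and siRelB the genes parted: SCG5 was lower, CALB2 stayed near its siNC level and CPA4 was higher. These contrasts set 2 arrays of each siRNA against 4 of siNC with TNFalpha in the fit, and they share the siNC arrays with each other. All siRelA and siRelB arrays are in the second set, which holds only 2 of these 4 siNC arrays. Within that set the log2 changes with siRelA and siRelB were -2.56 and -2.62 for SCG5. They were -0.06 and 0.20 for CALB2 and 2.12 and 1.11 for CPA4. Of all genes, 2% passed with siRelA (0.627% upward and 1.37% downward) and 1.16% with siRelB (0.375% upward and 0.782% downward). The rule used these responses, so the values of the 3 genes here and below are a description.

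SCG5 signal was 91.9 without and 94.5 with TNFalpha on the siRelA arrays, and 95.5 without and 83.6 with TNFalpha on the siRelB arrays. All 4 values lie below the lowest siNC array (313.4) and only 1.44 to 1.61 times above background, with a detection p of at most 0.00149. The log2 change was -2.80 ± 0.22 (SE) with siRelA and -2.86 ± 0.22 with siRelB, 6.99-fold and 7.27-fold lower than siNC. The size depends on the handling of background, since without background correction the changes were -1.81 and -1.83. The siRelA and siRelB arrays could not be ordered, as their normalized log2 levels of 5.62 and 5.66 for siRelA overlap the 5.70 and 5.46 for siRelB. From the siRelB array with TNFalpha to the siEZH2 array with TNFalpha, the SCG5 level spanned log2 values of 5.46 to 12.39.

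CALB2 signal was 570.2 without and 471.8 with TNFalpha on the siRelA arrays, and 664.7 without and 565.1 with TNFalpha on the siRelB arrays. These fall around the siNC range of 516.9 to 878. The log2 change was -0.12 ± 0.14 (95% interval -0.44 to 0.20) with siRelA and 0.14 ± 0.14 (-0.18 to 0.46) with siRelB. After normalization the siRelA levels of 9.002 and 8.79 and the siRelB levels of 9.20 and 9.12 overlapped the siNC levels of 8.95 to 9.29, so neither siRNA could be ordered against siNC. The siRelA arrays lay below the siRelB arrays without overlap, by 0.20 without and 0.32 with TNFalpha on the log2 scale, against a pooled replicate SD of 0.157.

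CPA4 signal was 857.7 without and 824.3 with TNFalpha on the siRelA arrays, and 498.1 without and 382.4 with TNFalpha on the siRelB arrays. All 4 exceed the highest siNC array (278.6), and none reaches the lowest siEZH2 array (1623.4). The log2 change was 2.13 ± 0.24 (SE), 4.39-fold, with siRelA and 1.13 ± 0.24, 2.18-fold, with siRelB. The siRelA arrays stood above the siRelB arrays by 0.88 without and 1.13 with TNFalpha on the log2 scale. The order for CPA4 was thus siNC, siRelB, siRelA, siEZH2 with no overlap between neighbours, although siRelA and siRelB rest on 2 arrays each.

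**Figure D2:**
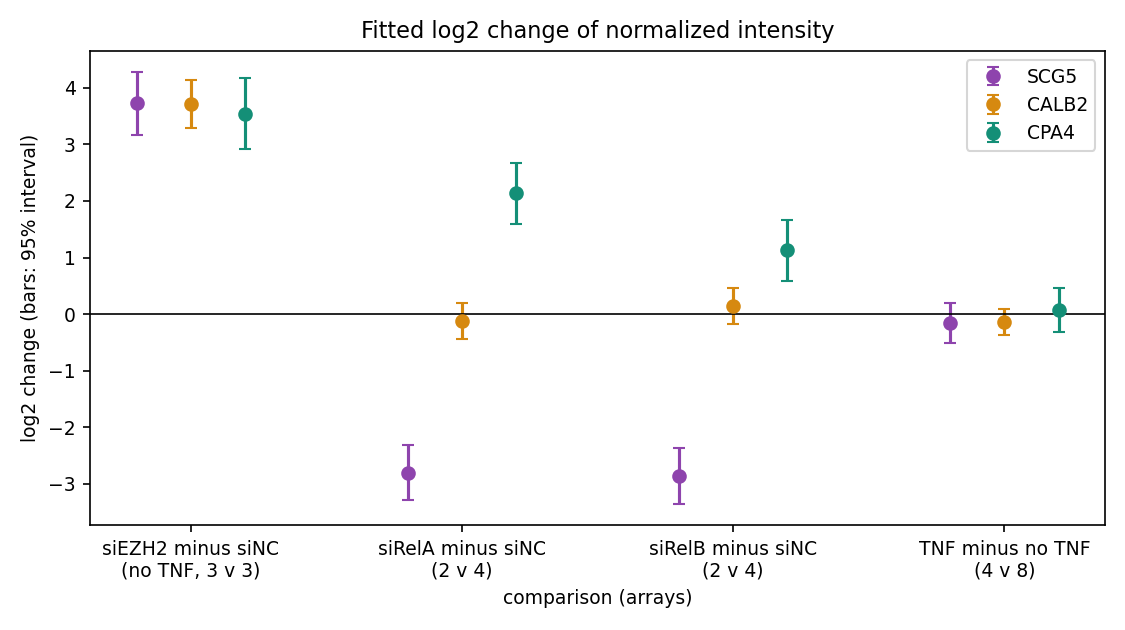
Fitted log2 change of normalized intensity for SCG5, CALB2 and CPA4 in 4 comparisons, with 95% intervals as bars. The 3 genes lie together at 3.54 to 3.72 with siEZH2, spread from -2.80 to 2.13 with siRelA and from -2.86 to 1.13 with siRelB, and lie between -0.16 and 0.08 with TNFalpha.

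The response to TNFalpha was independent of the choice of the genes and was tested. Over all 12 arrays (4 with and 8 without TNFalpha), none of the 3 genes passed. The log2 change was -0.16 ± 0.16 (95% interval -0.51 to 0.19) for SCG5, -0.14 ± 0.10 (-0.37 to 0.09) for CALB2 and 0.08 ± 0.17 (-0.31 to 0.46) for CPA4, each with an adjusted p of 0.994 in limma. As ratios to the level without TNFalpha, the intervals reach from 0.702 to 1.14 for SCG5, 0.776 to 1.07 for CALB2 and 0.807 to 1.38 for CPA4. Over all genes, 0% passed this test, and 219 of 12274 had an unadjusted p under 0.05, which is a share below 0.05. RELB, with a log2 change of 0.65 ± 0.16 (SE), did not pass either (limma, adjusted p = 0.994). Failing this test therefore does not show that a gene lacked a response.

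Within each siRNA, the TNFalpha arrays of the second set could be compared with their partner. SCG5 differed by -0.14 with siNC, 0.02 with siEZH2, 0.05 with siRelA and -0.24 with siRelB on the log2 scale. CALB2 differed by -0.01, -0.03, -0.21 and -0.08, and CPA4 by 0.09, 0.03, 0.01 and -0.25, in the same order of siRNAs. Of these 12 differences, the one of CALB2 with siRelA exceeded 1 pooled replicate SD of its gene. The siRNA by TNFalpha interactions ranged from -0.35 for CPA4 with siRelB to 0.54 for SCG5 with siEZH2, and none passed in limma (adjusted p of 0.9999 or more, single TNFalpha arrays being assumed to vary like the replicated groups). Across all genes 0% passed any of the 3 interactions, and 23, 17 and 15 genes had an unadjusted p under 0.05 for siEZH2, siRelA and siRelB. These shares are below 0.05 as well, so failing the interaction tests does not show that the responses were alike. Within the second set (4 arrays against 4), the TNFalpha change was -0.08, -0.08 and -0.03 for SCG5, CALB2 and CPA4 (limma, adjusted p = 0.895, 0.856 and 0.966).

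**Figure D3:**
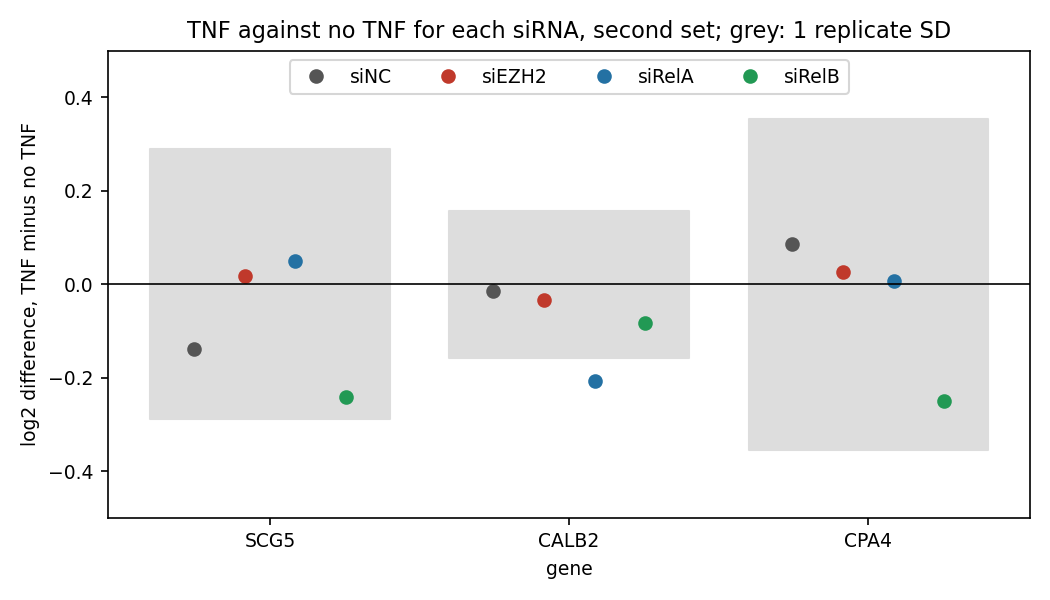
Log2 difference of normalized intensity between the array with and the array without TNFalpha for each siRNA, within the second set (replicate 3 for siNC and siEZH2). Grey bands span 1 pooled replicate SD on each side of 0 (0.289, 0.157 and 0.354), and the siRelA point of CALB2 at -0.21 is the one outside its band.

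The 3 genes are among 8 whose fitted rise with siEZH2 exceeded 10-fold. The others were CST1, a secreted cystatin protease inhibitor (log2 change 5.57), PLD5, a member of the phospholipase D family, ESM1, a secreted endothelial proteoglycan (3.43), IGFBP3, which binds insulin-like growth factors (3.39), and DEFB103A, a beta-defensin (3.37, detected on 1 of 3 siNC arrays). CST1 and DEFB103A have near-identical gene copies and their probes may not tell these apart. PLD5 was not detected on any siNC array without TNFalpha and was at least 15.1-fold higher with siEZH2. Just below the 10-fold line stood MAP3K7CL (9.80-fold), VSTM2L (9.59-fold) and ANGPTL4 (9.25-fold), a secreted inhibitor of lipoprotein lipase, and just inside it DEFB103A (10.4-fold). With siRelA and siRelB, the log2 changes were 1.65 and 2.10 for CST1 and 0.95 and 1.48 for IGFBP3. ESM1 was 1.90 higher with siRelB and was undetected on both siRelA arrays, a change that did not pass in limma (adjusted p = 0.426). It was detected on 2 of 3 siNC arrays without TNFalpha. Its siRelA log2 levels of 5.04 and 4.99 overlapped the 4.99 to 6.66 of those arrays, so no fold is given. For ANGPTL4 the fitted changes were -0.83 and -0.72, negative with both like those of SCG5. Its log2 levels of 7.81 and 7.52 with siRelA and 7.91 and 7.63 with siRelB, however, lay within its siNC range of 7.04 to 9.09 without TNFalpha. SCG5 lay below every siNC array. VSTM2L was also negative with both (-0.16 and -0.48) but was undetected on the siRelA and siRelB arrays.

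**Figure D4:**
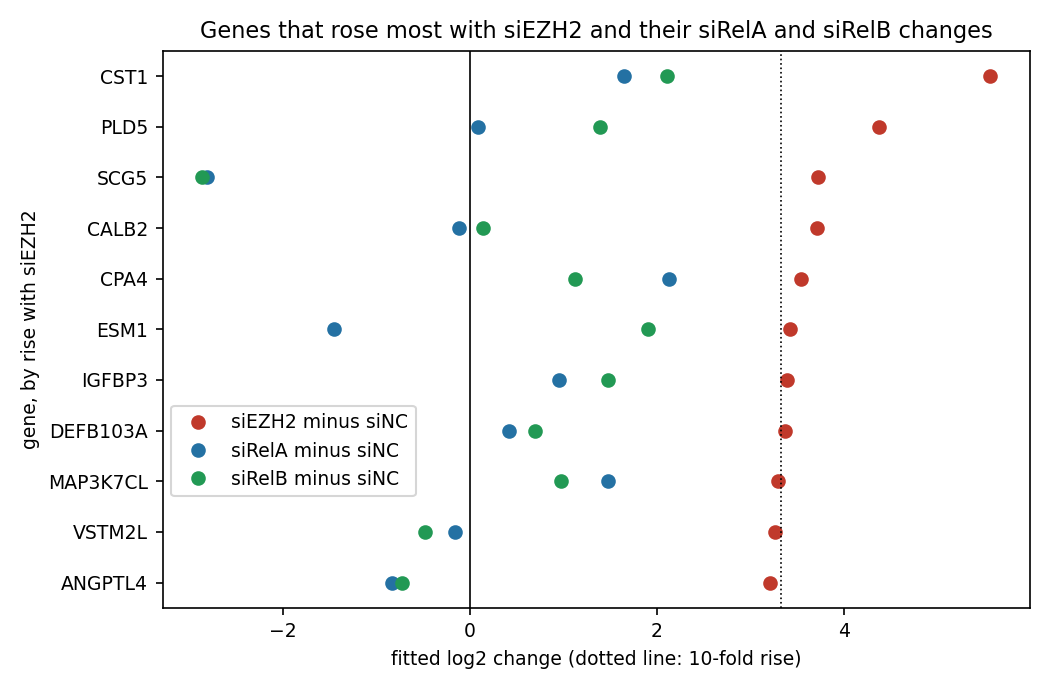
Fitted log2 change with siEZH2 (red), siRelA (blue) and siRelB (green) against siNC for the 8 genes over the dotted 10-fold line and the 3 next below it, in order of their rise. SCG5 lies at -2.80 and -2.86 with siRelA and siRelB, CALB2 at -0.12 and 0.14, and CPA4 at 2.13 and 1.13. The PLD5 points, the siRelA point of ESM1 and the siRelA and siRelB points of VSTM2L are fitted values that involve a group without detection.

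Genes with the most similar pattern were listed for each of the 3 by Pearson correlation of log2 normalized intensity over the 12 arrays. The arrays share their normalization and the large difference between the siEZH2 arrays and the rest, so r over the 8 arrays without siEZH2 is given as well. It is no separate check, since the genes were picked on all 12 arrays, which include these 8. The 8 also include the siRelA and siRelB arrays, whose responses the rule used. For SCG5 they were IFI44, an interferon-inducible gene (r = 0.991 over 12 and 0.977 over 8 arrays), MAD1L1, a spindle checkpoint protein (0.991 and 0.966), PLOD1, a collagen lysyl hydroxylase (0.991 and 0.988), IDUA, a lysosomal iduronidase (0.983 and 0.939), and PFKFB4, a regulator of glycolysis (0.979 and 0.928). Their own rise with siEZH2 was smaller than that of SCG5, from 1.61-fold for PLOD1 to 2.70-fold for PFKFB4. With siRelA PLOD1 changed by -0.64 and IFI44 by -0.53 on the log2 scale.

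For CALB2 the list was HSPA5, the endoplasmic reticulum chaperone BiP (r = 0.997 and 0.910, 5.26-fold higher with siEZH2), STX12, an endosomal syntaxin (0.996 and 0.949), SLC49A4 (0.994 and 0.862), LGMN, the lysosomal protease legumain (0.992 and 0.211), and B4GALNT1, a ganglioside synthase (0.992 and 0.279). B4GALNT1 was not detected on any siNC array without TNFalpha and was at least 3.21-fold higher with siEZH2, and it passed the detection filter through its 4 siEZH2 arrays. For LGMN and B4GALNT1 the likeness came from the siEZH2 arrays, since r was low over the others.

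For CPA4 the list was ARPC1A, a subunit of the actin-nucleating ARP complex (0.989 and 0.964), HN1 (0.989 and 0.978), MAMDC2 (0.989 and 0.960, 5.06-fold higher with siEZH2), MAP3K7CL (0.988 and 0.986) and RAB40B, a small GTPase (0.981 and 0.935). MAP3K7CL and MAMDC2 came nearest to CPA4 in size, with log2 changes of 1.48 and 1.33 with siRelA and 0.98 and 0.85 with siRelB. Between the 3 genes themselves, r over 12 arrays was 0.905 for SCG5 and CALB2, 0.589 for SCG5 and CPA4 and 0.842 for CALB2 and CPA4. Over the 8 arrays without siEZH2 it was 0.190, -0.902 and -0.377, values that restate the siRelA and siRelB responses on which the genes were chosen.

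Genes of the granule pathway in which SCG5 acts rose in part with siEZH2. Of 24 other genes listed for neuroendocrine secretion, 13 were measured, and 6 of these rose and 0 fell, where 7.89% of all genes rose and 6.92% fell. The median log2 change was 0.67 over these 13, against -0.0055 for all genes, and 0.029 over all 24 when no detection filter was set, with 5 rising. PCSK1N (proSAAS, an inhibitor of the convertase PCSK1) rose 6.66-fold (limma, adjusted p = 0.00507), from a log2 mean of 6.70 ± 0.60 to 9.43 ± 0.41 (SD, n = 3 each). SYT1, the calcium sensor of vesicle fusion, rose 4.38-fold (adjusted p = 0.00581), CPE, the carboxypeptidase that trims prohormone fragments, 3.37-fold (adjusted p = 0.00713), and FURIN, a convertase of the trans-Golgi, 3.36-fold (adjusted p = 0.0059). FURIN was detected on 2 of 3 siNC arrays without TNFalpha, with a low log2 mean of 5.33, against 5.71 for SYT1. The smallest log2 change in an alternative setting was 0.90 for FURIN, 1.28 for SYT1 and 1.35 for CPE, and each kept its call. PAM, which amidates peptides (2.84-fold, adjusted p = 0.0474), and SCG2, another granin (1.94-fold, adjusted p = 0.0225), also rose, but lost the call in 7 and 5 of 17 alternative settings. With the replicate number as a block (5347 of all 12274 genes called) 8 rose and 2 fell, and without both replicate 2 arrays (3801 called) 7 rose and 1 fell. With 1 replicate left out in turn (611 to 2168 called) 4 to 6 rose and 0 fell.

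Of the 24 pathway genes, 9 were detected on no array. PCSK2, the convertase that SCG5 serves, was among these, as were PCSK1, CHGA, CHGB, SCG3, PTPRN, SYP, RAB3A and RAB3D. Among 9 neuroendocrine cell markers, INSM1, NCAM1 and ENO2 were detected on all arrays, and CHGA, CHGB, SYP and UCHL1 were among those detected on none. Of the 4 measured, 0 passed with siEZH2, siRelA, siRelB or TNFalpha. Under the replicate block, which called 5347 of all 12274 genes, 1 of them fell with siEZH2. The summed normalized level of the marker list was 531 to 872 on the siNC and 369 to 812 on the siEZH2 arrays without TNFalpha. With siRelA 0 of the 13 pathway genes passed, and with siRelB SCG2 alone did, at least 2.86-fold lower than siNC and undetected on both siRelB arrays (limma, adjusted p = 0.00111, and 0.220 in the authors' values). The pathway's median change was -0.17 with siRelA and -0.03 with siRelB, against 0.029 and 0.036 for all genes, and 0 of 13 passed with TNFalpha.

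**Figure D5:**
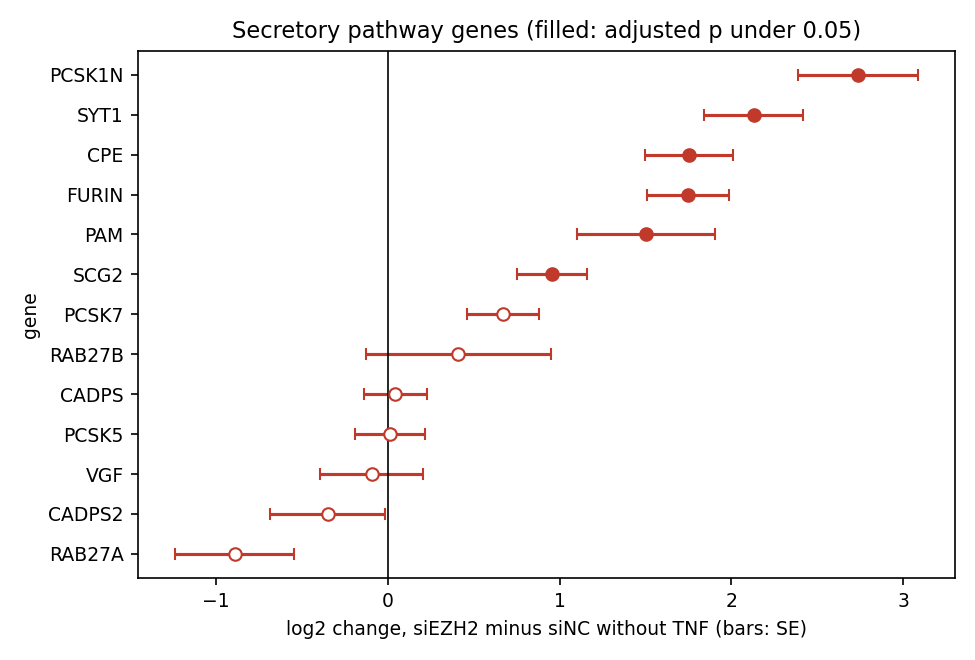
Log2 change with siEZH2 against siNC without TNFalpha (bars, SE; n = 3 against 3) of the 13 measured genes listed for neuroendocrine secretion other than SCG5. Filled points mark the 6 genes with an adjusted p under 0.05, PCSK1N at 2.73 being highest; the 7 open points did not pass.

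Among the EF-hand genes related to CALB2, the share called with siEZH2 was near the background. Of 47 listed, 34 were measured, 5 rose and 2 fell, where 14.8% of all genes were called, and the median log2 change was 0.04. VSNL1, a neuronal calcium sensor, rose 5.34-fold (limma, adjusted p = 0.00547), although it was detected on 1 of 3 siNC arrays, and NCS1, of the same sensor family, rose 2.59-fold (adjusted p = 0.00957). GCA, which encodes grancalcin, fell 3.27-fold (adjusted p = 0.00337) and CALM2, 1 of 3 calmodulin genes, fell 2.07-fold (adjusted p = 0.00834, and 0.0527 without the siNC array of replicate 3). With the replicate number as a block (5347 of all 12274 genes called) 12 rose and 7 fell, and without both replicate 2 arrays (3801 called) 10 and 7. The number that rose was 3 when arrays were scaled to their 75th percentile or set was a term, and 2 to 4 with 1 replicate left out in turn. Without the siNC array of replicate 2, 4 rose and 6 fell, and the median turned to -0.14. With siRelA 0 rose and EFHD2 fell 1.73-fold (adjusted p = 0.0452, lost in 7 of 16 alternative settings), and with siRelB and TNFalpha 0 passed in either direction.

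Calretinin is also a marker of mesothelial cells, and 8 other such markers were followed. Of these, MSLN and LRRN4 were detected on all arrays and PDPN, KRT5 and ITLN1 on none. The summed level was 497 to 543 with siNC and 585 to 917 with siEZH2 on the arrays without TNFalpha. It was also above the siNC range with siRelA (882) and siRelB (803) without TNFalpha, so a higher sum was not particular to siEZH2. Among the 5 measured, 0 rose and 1 fell with siEZH2, where 14.8% of all genes were called, and 1 rose and 0 fell without background correction. With the replicate block (5347 of all 12274 genes called) or without both replicate 2 arrays (3801 called), 1 rose and 1 fell. WT1 fell 2.40-fold with siEZH2 (limma, adjusted p = 0.0264, lost in 6 of 17 alternative settings), and MSLN, whose protein is mesothelin, rose 2.21-fold with siRelA (adjusted p = 0.017, and 0.187 in the authors' values). MSLN was also 1.79-fold higher with siEZH2 (limma, adjusted p = 0.0603) and 1.90-fold higher with siRelB (adjusted p = 0.0637), but did not pass there. All arrays are labelled as the 1 breast cancer line, so these genes describe expression in that line and do not count mesothelial cells. A link between them and the CALB2 rise was not tested.

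Among the other carboxypeptidases of the M14 family and their inhibitors, the one that rose with siEZH2 was CPE, also a gene of the granule pathway. Of 23 listed, 11 were measured, of which 1 rose and 10 did not pass. The share that rose was near the 7.89% of all genes that rose, and the median log2 change was -0.07. CPA5, which adjoins CPA4 on chromosome 7, changed by 0.06 ± 0.21 (adjusted p = 0.915). With the replicate block (5347 of all 12274 genes called), or without both replicate 2 arrays (3801 called), 1 rose and 1 fell. With siRelA, siRelB and TNFalpha 0 of the 11 passed.

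Chromosomal neighbours of the 3 genes, 5 protein-coding genes on each side, were called with siEZH2 about as often as all genes, 2 of 13 measured against 14.8%. With the replicate block (5347 of all 12274 genes called), or without both replicate 2 arrays (3801 called), 2 rose and 1 fell. Of the 7 measured around CPA4 (ZC3HC1, KLHDC10, SSMEM1, CPA5, CEP41, MEST and COPG2), 0 passed, with log2 changes from -0.31 for COPG2 to 0.19 for SSMEM1. Around SCG5 on chromosome 15, 4 were measured, and ARHGAP11A, a GTPase-activating protein, fell 2.31-fold (limma, adjusted p = 0.0452), a call lost in 11 of 17 alternative settings. A read-through transcript that joins ARHGAP11A and SCG5 is annotated there and was not measured apart. Around CALB2 2 were measured, of which VAC14, a scaffold of phosphoinositide synthesis, rose 1.64-fold (adjusted p = 0.0299, lost in 6 of 17 alternative settings) and ZNF23 changed by 0.59 (adjusted p = 0.0818). With siRelA, siRelB and TNFalpha, 0 of these neighbours passed.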

How the data were processed

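Each of the 12 arrays has, in the deposited profile, a linear intensity per probe without normalization, a bead count and a detection score, per the file headers. The detection p was taken as 1 minus that score. BeadStudio 3.2.7 is named in the submitters' processing notes. The authors also deposited processed values on a log2 scale for the 22184 probes. Set against the signals of 5973 bright probes (over 200 on all arrays), these equal the log2 signal less the 75th percentile of its array and less a probe centre computed within each of 2 sets of arrays, with a remaining SD of at most 5.27e-07 within a set and at least 0.334 between sets. Scale, centring and direction were read from the values, and no source used here gives the tool. Their medians were -0.0267, 0.0135 and 0.0283 for siNC replicates 1 to 3, -0.0544, 0.0518 and 0.214 for siEZH2, 0.0694 and 0.198 for siNC and siEZH2 with TNFalpha, -0.0663 and -0.0140 for siRelA without and with, and -0.116 and -0.0377 for siRelB. A further 48 columns of per-probe summaries were not used.

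Background correction used the normal-exponential model of limma 3.58.1 in R 4.3.3, fed with the detection p. Signals were then raised by 16, quantile normalized and put on a log2 scale. Probes with a detection p under 0.05 on at least 3 of 12 arrays were kept (13884), and the brightest kept probe stood for each of 12274 genes. Of the 22184 probe names, 17692 were current in the GRCh38.p14 gene table, used for names and neighbours only, 636 had no match and 158 were ambiguous. Those kept the name in the file. Group-mean fits gave siEZH2 and the interactions, and additive fits of siRNA and TNFalpha gave siRelA, siRelB and TNFalpha, each over 12 arrays with Benjamini-Hochberg adjustment over all genes. The scripts were tested on simulated data. Named genes were the members, siRNA targets, genes over 10-fold and the 3 next below, the 5 most alike, the 5 neighbours on each side, markers, and up to 4 called genes per list and comparison. PAM, the siEZH2 value of SCG2 and the undetected pathway genes were added after their values were seen. Members and lists were chosen with earlier results of these data known. Deviations from the group means correlated at 0.757, 0.836 and 0.653 between siNC and siEZH2 arrays of the same number. Arrays of unlike number also correlated, at 0.426 (siNC 3 with siEZH2 1) and 0.418 (siNC 1 with siEZH2 3), and negatively wherever 1 of them was replicate 2. Replicate 2 thus stood apart in both groups, and these values cannot establish that the numbers pair the arrays. No 2 arrays held identical values. The number of arrays limits the precision.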

Additional observations from a re-analysis of the deposited data

How the results depend on the processing

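The 3 genes kept the direction of their siEZH2 change in every alternative run. Without background correction the siEZH2 change was 3.55 for CALB2 and 3.10 for CPA4, and in the authors' processed values, with set as a term or without it, 3.50 and 3.12. In the second set alone it was 4.18 for SCG5. Without background correction SCG5 changed by -1.81 with siRelA and -1.83 with siRelB. The authors' values, whose centring differs between sets, gave -0.50 and -0.57, and adding the set as a term to them, which was chosen after seeing the data, gave -1.99 and -2.06. CALB2 changed by 0.66 and 0.89 in the authors' values without that term, and CPA4 by 1.77 with siRelA without background correction. For TNFalpha the authors' values gave 1.48, 0.62 and -0.024 for SCG5, CALB2 and CPA4, and none passed. All arrays with TNFalpha belong to the second set. With set as a term, the authors' values gave -0.0075 for SCG5 and -0.083 for CALB2. CPA4 turned to -0.032 with TNFalpha both in the second set alone and with set as a term, to -0.030 in the authors' values with that term, and to -0.038 without both replicate 2 arrays, and none of these passed. Among interactions, none of which passed in any setting, SCG5 with siEZH2 was 0.16 against replicate 3 alone. CALB2 with siEZH2 was -0.012 without background correction and -0.028 without both replicate 2 arrays. SCG5 was -2.11 with siRelA and -2.24 with siRelB in the authors' values, but 0.38 and 0.25 in those values with set as a term. CPA4 with siRelA was 0.084 in the authors' values, 0.053 with set as a term and 0.064 with both. CALB2 with siRelB was -1.20 in the authors' values, -0.057 with set as a term, -0.050 with both and -0.053 without both replicate 2 arrays. The cause of these shifts was not tested.

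Leaving out each siNC or siEZH2 replicate in turn gave 3.56 to 3.95 for SCG5, 3.63 to 3.81 for CALB2 and 3.40 to 3.81 for CPA4 with siEZH2. With siRelA it gave -2.88 to -2.64, -0.16 to -0.06 and 2.07 to 2.18, with siRelB -2.94 to -2.70, 0.10 to 0.20 and 1.07 to 1.18, and with TNFalpha -0.19 to -0.09, -0.15 to -0.11 and -0.0069 to 0.11. The interactions in the order SCG5, CALB2, CPA4 ranged from 0.31 to 0.71, -0.10 to 0.076 and -0.062 to 0.35 for siEZH2, from 0.29 to 0.69, -0.18 to -0.01 and -0.18 to -0.0028 for siRelA, and from 0.0027 to 0.40, -0.053 to 0.11 and -0.44 to -0.26 for siRelB. Genes called over the whole array were 611 to 2168 with siEZH2 against 1817, 168 to 462 with siRelA against 245, 72 to 333 with siRelB against 142 and 0 to 1 with TNFalpha. The calls numbered 950, 101 and 48 with siEZH2, siRelA and siRelB in the authors' values, 6272, 2143 and 1927 in the second set alone, 3801, 1518 and 1347 without both replicate 2 arrays (2 with TNFalpha), and 248 with siRelB when the authors' values had set as a term. With the replicate number as a block, 5347 genes were called with siEZH2 and the changes of the 3 genes stayed at 3.72, 3.71 and 3.54. In the authors' values the EZH2 decrease with siEZH2 (limma, adjusted p = 0.0522) and the RELB decreases with siRelA (0.0697) and siRelB (0.0590) did not pass, nor did SCG2 with siRelB and MSLN with siRelA. SCG5 on the siRelA and siRelB arrays is limited by its signal over background.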
